A study of Oryctolagus cuniculus with 6 samples.

Results

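The contractile apparatus of smooth muscle is described here in rabbit basilar artery, as 32 genes of the actin and myosin filaments, their regulators and their attachments. Members were found by gene symbol or full gene name among the probes of a rabbit microarray. Of the 32 genes, 29 had a probe, with 65 of the 43603 probes of the array between them. MYL6 (the essential light chain of smooth muscle myosin), SRF (serum response factor) and PPP1R14A (a phosphorylation-dependent inhibitor of myosin phosphatase) had no matched probe and dropped out. All 65 probes were bright enough to be tested, and 28 of the 29 genes were well above background on all 6 arrays. HSPB7, the exception, was above background on 1 sham and 2 ligated arrays.

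The rabbits were female, of the New Zealand White strain, and their age is not in the labels; RNA was taken from smooth muscle cells of their basilar arteries. In the ligated group (called hemodynamic insult in the labels, n = 3) both common carotid arteries were tied, which raises flow through the basilar artery. In the sham group (n = 3) both were exposed but not tied. All arteries were taken on day 5 and were perfused for 45 min with 0.4 mg/ml elastase and 1 mg/ml collagenase before the cells were freed by trituration, so this digestion is common to both groups. Whether RNA of several rabbits was pooled on an array is not said in the labels, and the p-values measure only the spread between these arrays. The RNA is a bulk sample, in which fewer cells of a type and less RNA per cell cannot be told apart.

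Smooth muscle shortens when myosin filaments pull on actin filaments anchored in dense bodies and in plaques at the cell membrane. Calcium bound to calmodulin activates myosin light chain kinase, which phosphorylates the regulatory light chain and switches myosin on, while a phosphatase switches it off. Transcription of most of these genes depends on serum response factor and its cofactor myocardin. The proteins mark the contractile state of arterial smooth muscle, and their loss is a known feature of the synthetic state that these cells take up after injury or in culture.

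Every level below is a log2 signal relative to the 75th percentile of its own array, and every change is ligated minus sham on that scale, so a negative change means less signal in ligated arteries. Levels of different probes cannot be set against each other. The share of all probes well above background ran from 58.7% to 63.7% over the arrays, and no spot was saturated. Slide 1 held the sham arrays and slide 2 the ligated ones, so an effect of the slide and one of ligation cannot be told apart. Sham 3 was scanned on scan day 2 and all other arrays on scan day 1. Sham 2 and sham 3 resembled each other most: the median absolute difference over 7574 named genes was 0.14 for them and from 0.35 to 0.58 for every other pair. Calls were therefore also made with sham 2 and sham 3 averaged into 1 sample. Over 10 spike-in controls the median difference between the groups was -0.81 after scaling, a shift whose part in the results was not tested.

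The probes that carry the results are 60 bases long and read 1 short stretch of each transcript. Those of SMTN, CSRP1 and 2 of desmin are shown because they include 3 of the 4 members that passed the test, that of MYH11 because it had a large difference without passing, and that of ACTA2 because smooth muscle actin is the usual marker of these cells. Positions are on oryCun2, the build of the array files, without a strand.
SMTN (chr21:3561421-3561480): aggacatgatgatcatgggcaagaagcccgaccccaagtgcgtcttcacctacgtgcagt
CSRP1 (chr16:70047599-70047658): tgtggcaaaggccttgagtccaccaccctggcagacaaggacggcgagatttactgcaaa
DES, brightest probe (chr7:160624385-160625651): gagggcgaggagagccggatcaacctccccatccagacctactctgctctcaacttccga
DES, other probe (chr7:160623217-160623436): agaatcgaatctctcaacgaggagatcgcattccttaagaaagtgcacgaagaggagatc
MYH11 (chr6:11130316-11130375): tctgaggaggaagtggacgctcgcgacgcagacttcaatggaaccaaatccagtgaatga
ACTA2 (chr18:36857883-36857942): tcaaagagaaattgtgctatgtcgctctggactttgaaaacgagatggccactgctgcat
Both desmin probes cover more of the genome than their own length, since parts of each probe lie apart on the chromosome. The positions of the other probes fill 60 bases without a gap.

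In ligated arteries 4 of the 29 members had lower signal, 0 had higher signal and 25 did not pass (limma, two-sided, Benjamini-Hochberg adjusted p under 0.05 over 27410 probes). The 4 were SMTN, CSRP1, CASQ2 and DES, which differed by 2.16 to 3.41 times between the groups. Over 7574 named genes 2.68% were called lower and 6.21% higher, and over all probes 8.35% were called in either direction. Of the 29 members, 15 had every ligated array below every sham array, against 17.7% of named genes. For 0 members did every ligated array lie above every sham array, against 17.8% of named genes. The sign of the change was negative for 25 members, against 49.7% of named genes, and the median change was -0.93 over the members and 0.01 over named genes. At an unadjusted p under 0.05 there were 16 members, of which 15 were lower. Of named genes 27.8% were under that limit, and 12.4% were under it and lower. Since the members were chosen with earlier results of these data known, these counts describe the list and do not test it. With sham 2 and sham 3 averaged, SMTN and CSRP1 still passed, with adjusted p of 0.0335 and 0.0287 (limma), and DES and CASQ2 did not. By that rule 0.37% of named genes were called lower.

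**Figure D1:**
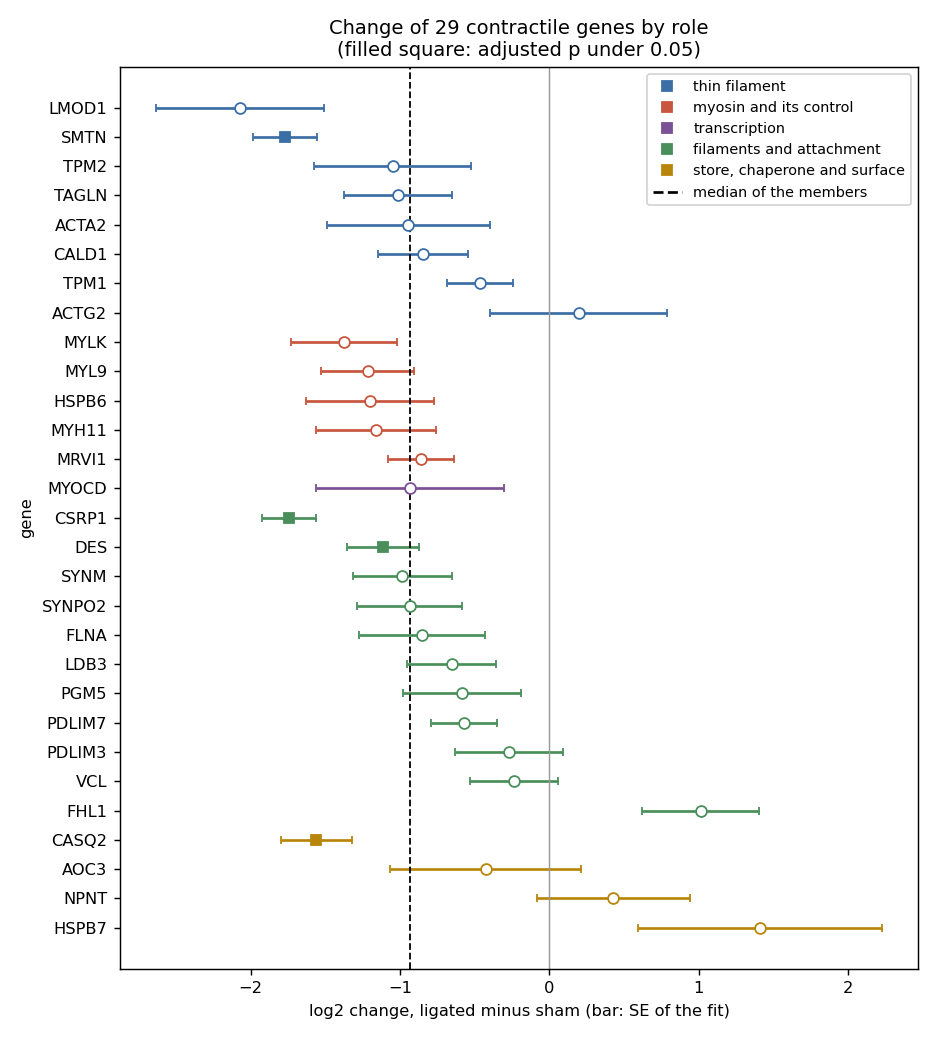
Log2 change from sham to ligated arteries (x axis, bars are the SE of the limma fit) for the 29 genes, ordered by role. Filled squares mark the 4 genes with an adjusted p under 0.05, and the dashed line is the members' median of -0.93, with 25 of the 29 points left of 0.

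The thin filament members are the actins ACTA2 and ACTG2, the tropomyosins TPM1 and TPM2 that lie along actin, and the actin-binding proteins caldesmon (CALD1), transgelin (TAGLN), smoothelin (SMTN) and leiomodin (LMOD1). Of these 8 genes 1 was lower, and the median change was -0.98. For 4 of them every ligated array lay below every sham array, against 17.7% of named genes. Smoothelin is found in contractile smooth muscle and is lost early when the cells leave that state. SMTN read 3.50, 2.93 and 3.08 in sham and 1.44, 1.50 and 1.26 in ligated arteries. Every ligated array was well below every sham array, and the ligated arrays lay close together. The change was -1.77 ± 0.22 (SE, n = 3 per group), a 3.41-fold fall, with an adjusted p of 0.00794 (limma). The call held without each array in turn, with adjusted p (limma) from 0.0148 to 0.0418.

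Leiomodin, which nucleates actin filaments in smooth muscle, had the largest difference of all 29 members and did not pass. LMOD1 read 2.63, 1.78 and 1.80 in sham and 0.48, 0.78 and -1.26 in ligated arteries. The groups were apart, and ligated 3 lay far below the other ligated arrays. The change was -2.07 ± 0.56 (SE, n = 3), with a 95% interval from -3.42 to -0.72 and an adjusted p of 0.0725 (limma).

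Transgelin, an actin cross-linking protein abundant in contractile smooth muscle, read 8.85, 8.03 and 7.86 in sham and 7.32, 7.67 and 6.71 in ligated arteries. The groups did not overlap, with ligated 2 just under sham 3. The change was -1.01 ± 0.36 (SE, n = 3; adjusted p = 0.133, limma), and its other probe, at a separate site, gave -1.06 ± 0.35. Caldesmon, which holds back actin-activated myosin ATPase, read 8.45, 8.14 and 7.87 in sham and 7.28, 7.80 and 6.84 in ligated arteries. Its groups were also apart, with ligated 2 again nearest to sham 3, and the change was -0.85 ± 0.30 (SE, n = 3; adjusted p = 0.131, limma).

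The tropomyosins gave smaller or less even differences. TPM1 read 7.58, 7.77 and 7.15 in sham and 7.02, 7.17 and 6.92 in ligated arteries, so that ligated 2 overlapped sham 3. Its change was -0.47 ± 0.22 (SE, n = 3; adjusted p = 0.233, limma), and all 7 of its probes gave changes between -0.61 and -0.47. Those 7 probes are staggered copies of 1 site that share runs of 53 to 59 bases, so they do not count as separate readings of the transcript. TPM2 read 2.69, 1.85 and 0.73 in sham and 0.39, 1.32 and 0.41 in ligated arteries, with sham 3 below ligated 2. Its change was -1.05 ± 0.53 (SE, n = 3), with an adjusted p of 0.253 (limma). Probes that the files describe as resembling tropomyosin 2 are listed as TPM4 in the RefSeq gene table and were not counted as TPM2. The brightest TPM4 probe had a change of 0.77 ± 0.21 (SE, n = 3), with groups apart and an adjusted p of 0.0718 (limma).

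Alpha smooth muscle actin, the most used marker of smooth muscle cells, did not pass. ACTA2 read 8.87, 7.73 and 7.73 in sham and 7.23, 8.08 and 6.18 in ligated arteries. Ligated 2 lay above sham 2 and sham 3, and the ligated arrays had an SD of 0.95 against 0.66 in sham. The change was -0.94 ± 0.54 (SE, n = 3), with a 95% interval from -2.25 to 0.36 and an adjusted p of 0.310 (limma). Without ligated 3 the change was -0.45.

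Gamma smooth muscle actin, the form that dominates in visceral smooth muscle, was the thin filament gene without a negative change. ACTG2 read 7.97, 6.88 and 6.89 in sham and 7.57, 8.48 and 6.28 in ligated arteries, with the highest and the lowest value both in the ligated group. The change was 0.19 ± 0.59 (SE, n = 3), with a 95% interval from -1.22 to 1.61 and an adjusted p of 0.851 (limma). Its sign is not settled: it was -0.32 without ligated 2, -0.0038 with each array centred on its median, and 0.78 without ligated 3. Its 5 probes share runs of 51 to 59 bases and gave changes from 0.02 to 0.19.

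Vertebrate actins are nearly alike as proteins, so probes within their coding parts can read more than 1 actin. The array's own annotation shows how hard they are to name. A pair of probes that the files describe as cytoplasmic beta-actin are listed as the skeletal actin ACTA1 in the RefSeq gene table. The brightest of them and the brightest ACTG2 probe lie over each other for 37 bases, of which 28 are the same, and both are shown with the shared letters in capitals.
ACTG2 (chr2:112585838-112585897): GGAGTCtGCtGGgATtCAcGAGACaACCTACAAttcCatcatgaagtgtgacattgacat
ACTA1: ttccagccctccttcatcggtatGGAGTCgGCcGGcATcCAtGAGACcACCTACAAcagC
The longest unbroken run of letters in common was 8 bases. The ACTA2 probe shared no run over 6 bases with any ACTG2 probe. These runs compare probe with probe. No probe was set against the transcript of another actin, so the runs cannot show which actins a probe reads. The bright ACTA1 probe read 9.04, 8.26 and 8.05 in sham and 7.60, 8.42 and 6.85 in ligated arteries, which puts the arrays of each group in the same order as ACTA2. That order is not particular to actins, since TAGLN, CALD1, MYL9, MYLK and MYH11 had it too. The probe listed as the cardiac actin ACTC1 read 8.47, 8.26 and 7.75 in sham and 7.51, 7.96 and 7.07 in ligated arteries. Of the marker list of striated muscle, in which ACTA1 and ACTC1 stand too, 9 genes were well above background on all 6 arrays, while MYH7, MYL1, MYL2, TNNT3, MYBPC3 and MYOZ1 were not on any. How much of each actin signal comes from another actin was not tested. The brightest beta-actin probe (ACTB) had a change of 0.27 ± 0.29 (SE, n = 3; adjusted p = 0.576, limma).

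**Figure D2:**
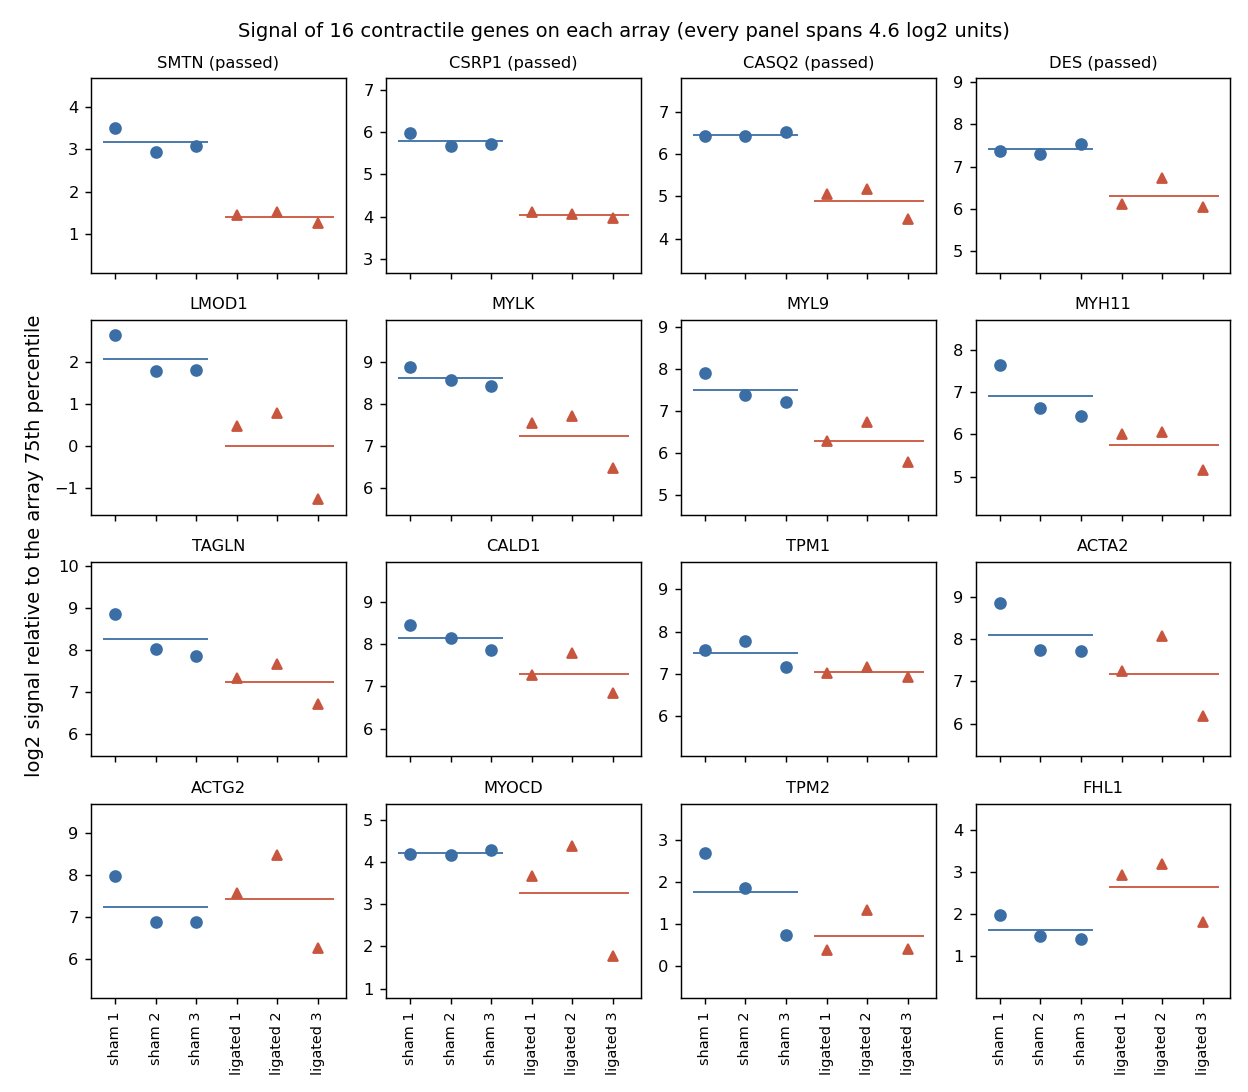
Log2 signal relative to the array's 75th percentile (y axis, panels of equal span) of 16 contractile genes on each array, with sham as circles, ligated as triangles and group means as lines. SMTN and CSRP1 have ligated arrays close together, whereas ACTA2, ACTG2 and MYOCD have ligated 2 above at least the lower sham arrays and ligated 3 as their lowest array.

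The myosin group comprises the smooth muscle myosin heavy chain MYH11, the regulatory light chain MYL9, the kinase MYLK that phosphorylates it, and 2 genes of relaxation: MRVI1, the substrate through which cGMP-dependent kinase restrains calcium release, and HSPB6, a small heat shock protein phosphorylated during cyclic nucleotide relaxation. None of the 5 passed, with 5 lower at an unadjusted p under 0.05 (limma), against 12.4% of named genes. All 5 changes were negative, from -1.38 to -0.86. For 4 of the 5 the groups did not overlap, against 17.7% of named genes lower without overlap. MYLK read 8.88, 8.57 and 8.43 in sham and 7.55, 7.72 and 6.48 in ligated arteries. Its ligated values all lay below sham, the lowest again on ligated 3, and the change was -1.38 ± 0.36 (SE, n = 3; adjusted p = 0.0648, limma). The other 3 MYLK probes gave changes between -1.23 and -1.12; on chromosome 14, 2 of them lie directly beside the brightest probe and 1 lies apart.

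MYL9 read 7.90, 7.38 and 7.21 in sham and 6.30, 6.74 and 5.80 in ligated arteries. The groups were apart and the change was -1.22 ± 0.31 (SE, n = 3; adjusted p = 0.0626, limma). The files describe this probe as resembling the related light chain MYL12A, and the RefSeq gene table gives its gene number to MYL9. MYH11 read 7.64, 6.63 and 6.44 in sham and 6.02, 6.05 and 5.16 in ligated arteries. Sham 1 was highest and ligated 3 lowest, and the change was -1.16 ± 0.40 (SE, n = 3; adjusted p = 0.125, limma). Its other probe, from a separate part of the gene, gave -0.51 ± 0.38.

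MRVI1 read 1.29, 1.44 and 1.29 in sham and 0.80, 0.48 and 0.16 in ligated arteries. All ligated arrays were lower, with a change of -0.86 ± 0.22 (SE, n = 3; adjusted p = 0.0626, limma). HSPB6 read 0.82, 2.22 and 2.02 in sham and 1.00, 0.24 and 0.22 in ligated arteries. Here sham 1 was the low sham array and overlapped ligated 1, and the change of -1.20 ± 0.43 (SE, n = 3) had an adjusted p of 0.133 (limma) that became 0.0362 without sham 1.

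Myocardin, the cofactor that drives the smooth muscle program through serum response factor, was the only transcription factor of the list with a probe. MYOCD read 4.18, 4.16 and 4.28 in sham and 3.68, 4.38 and 1.77 in ligated arteries. The sham arrays were close together, ligated 2 was above all of them, and ligated 3 stood far below. The change was -0.93 ± 0.63 (SE, n = 3; adjusted p = 0.375, limma) and it was -0.18 without ligated 3. All 7 MYOCD probes had negative changes, from -0.95 to -0.69. They lie close together on chromosome 19, and most of them are staggered copies.

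Of the 11 members that form intermediate filaments, cross-link actin or attach it to membranes and Z-disc-like bodies, 2 were lower and the median change was -0.66. For 6 of the 11 every ligated array lay below every sham array, against 17.7% of named genes. CSRP1, a LIM domain protein that binds alpha-actinin and zyxin on actin bundles, had the smallest p of all members. It read 5.98, 5.68 and 5.72 in sham and 4.12, 4.07 and 3.97 in ligated arteries. The ligated arrays differed by less than the sham arrays and lay far from them. The change was -1.74 ± 0.18 (SE, n = 3), a 3.34-fold fall, with an adjusted p of 0.00509 (limma). The call held without each array in turn, with adjusted p (limma) from 0.0126 to 0.0323.

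Desmin is the intermediate filament protein of muscle. The brightest DES probe read 7.38, 7.31 and 7.54 in sham and 6.12, 6.73 and 6.04 in ligated arteries. The groups were apart, with ligated 2 nearest to sham, and the change was -1.11 ± 0.24 (SE, n = 3), a 2.16-fold fall, with an adjusted p of 0.0399 (limma). The other DES probe read 4.46, 3.96 and 3.94 in sham and 3.65, 4.27 and 2.43 in ligated arteries, where ligated 2 overlapped sham. Its change of -0.67 ± 0.47 (SE, n = 3) did not pass, with an adjusted p of 0.395 (limma). The call on the brightest probe ended without sham 1, sham 2, sham 3, ligated 1 or ligated 3, with adjusted p (limma) from 0.0667 to 0.156, and with sham 2 and sham 3 averaged (0.136).

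Synemin (SYNM), a partner of desmin in intermediate filaments, read -0.59, -1.47 and -1.67 in sham and -1.98, -2.17 and -2.53 in ligated arteries. The groups did not overlap, and the change of -0.99 ± 0.33 (SE, n = 3) had an adjusted p of 0.117 (limma). Synaptopodin 2 (SYNPO2), filamin A (FLNA) and PDLIM7, which cross-link actin or dock proteins on it, also had groups apart, with changes of -0.94, -0.85 and -0.57. The other members without a call were LDB3 at -0.66, PGM5 (a protein of adherens junctions related to phosphoglucomutase) at -0.58, PDLIM3 at -0.27 and vinculin (VCL), which links plaques to actin, at -0.24. Vinculin's groups overlapped on all but ligated 3, with a 95% interval from -0.94 to 0.46. FHL1, a muscle LIM protein, moved the other way without passing. It read 1.99, 1.49 and 1.42 in sham and 2.92, 3.19 and 1.82 in ligated arteries, with ligated 3 below sham 1. Its change was 1.01 ± 0.39 (SE, n = 3; adjusted p = 0.157, limma), and without ligated 3 it was 1.43 with an adjusted p of 0.0353 (limma).

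The last members act in the calcium store, in protein folding or at the surface of the cell. Calsequestrin 2, the calcium-binding protein of the store in cardiac and some smooth muscle, was lower. CASQ2 read 6.42, 6.43 and 6.53 in sham and 5.07, 5.17 and 4.46 in ligated arteries. The sham arrays were close together and every ligated array was lower by more than their spread. The change was -1.56 ± 0.24 (SE, n = 3), a 2.95-fold fall, with an adjusted p of 0.0149 (limma). All 3 CASQ2 probes passed, with changes from -1.60 to -1.53; they lie side by side on chromosome 13 and share runs of at most 20 bases. The call ended without sham 2 (adjusted p = 0.0677, limma), without sham 3 (0.0747) and with both averaged (0.0688). The other members here did not pass. AOC3, an amine oxidase on the surface of smooth muscle cells, had a change of -0.43, the matrix protein nephronectin (NPNT) one of 0.43, and the small heat shock protein HSPB7, near background, one of 1.41 ± 0.82 (SE, n = 3).

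**Figure D3:**
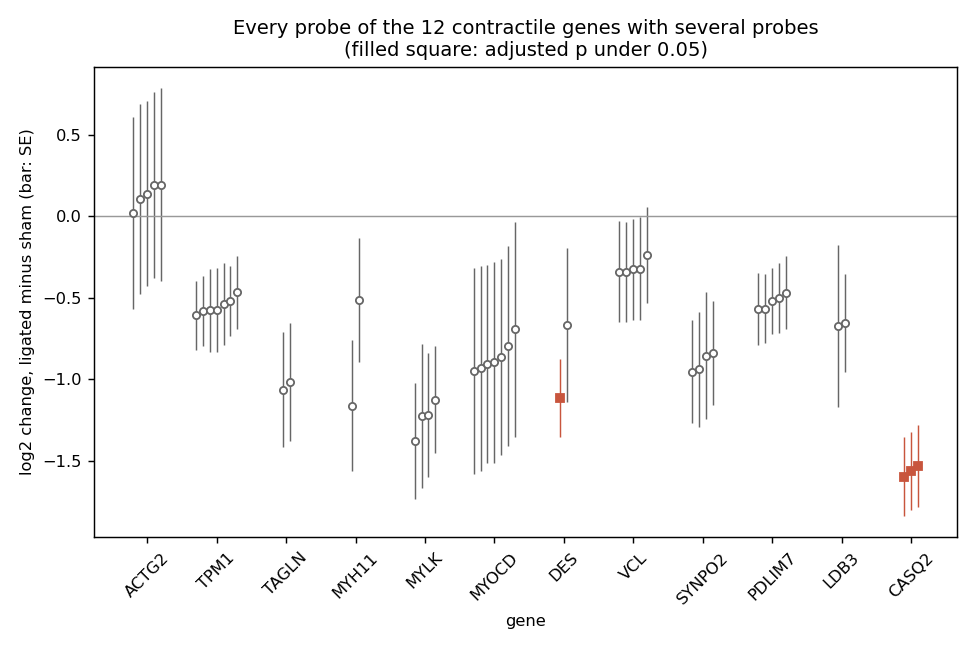
Log2 change from sham to ligated arteries (y axis, bars are the SE) of every probe of the 12 members with more than 1 probe, with filled squares for an adjusted p under 0.05. All 3 CASQ2 probes and 1 of 2 DES probes passed, and within each gene all probes have the same sign. In ACTG2, TPM1, PDLIM7, VCL and most of MYOCD the probes are staggered copies of nearly the same bases.

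Over all 65 probes of the members, 57 had a negative change and 6 passed, all lower. Of all tested probes 2.65% were called lower and 5.71% higher, and their median change was 0.0076. In each of the 12 members with more than 1 probe, the probes had 1 sign. All probes of ACTG2, TPM1, PDLIM7 and VCL share runs of at least 51 bases, and most MYOCD probes are staggered copies too. Such copies read nearly the same bases, so their equal sign and their weight in the count of 57 are not separate readings. The size differed between separate sites of 1 transcript most in DES (-1.11 and -0.67) and MYH11 (-1.16 and -0.51).

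The members did not behave alike over the ligated arrays. Ligated 3 was the lowest ligated array for 26 of the 29 members (89.7%), against 35.3% of 7574 named genes. Ligated 2 was the highest ligated array for 18 of them (62.1%, against 32.0%). Among sham arrays sham 1 was highest for 20 (69.0%, against 49.3%). The median of the members, each set against its own sham mean, was 0.33, -0.11 and -0.22 in sham and -0.68, -0.51 and -1.44 in ligated arteries. Over named genes the same medians lay between -0.06 and 0.06. The SD over the ligated arrays ran from 0.08 for CSRP1 and 0.13 for SMTN to 0.95 for ACTA2, 1.10 for ACTG2 and LMOD1, and 1.35 for MYOCD. Without ligated 3 the median change of the members was -0.61, with 24 of 29 changes negative, and without sham 1 it was -0.67, also with 24.

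**Figure D4:**
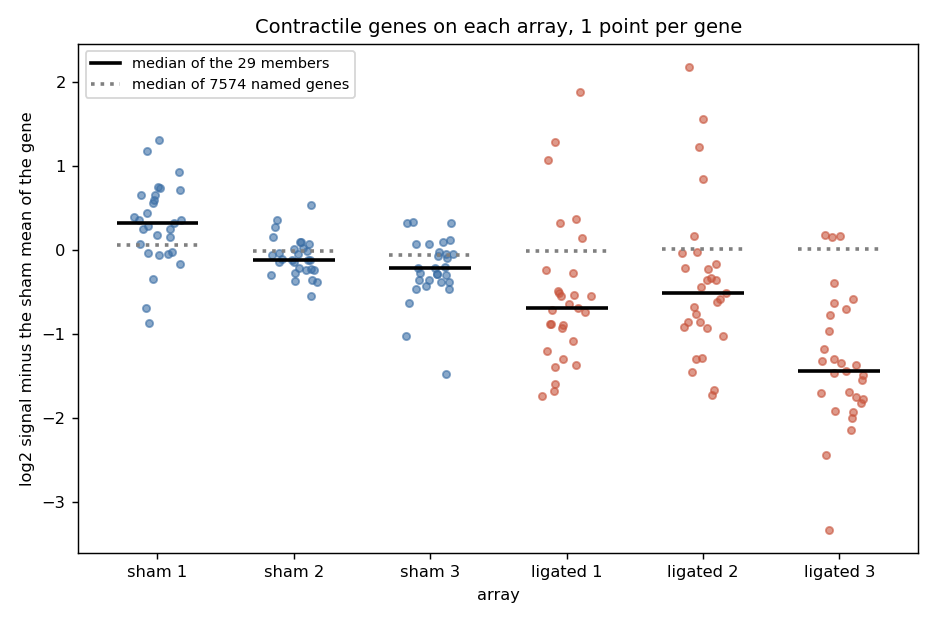
Log2 signal of each of the 29 members minus its mean over the sham arrays (y axis), 1 point per gene on each array; solid lines are the members' medians and dotted lines those of 7574 named genes. The members' median is -0.68, -0.51 and -1.44 on the ligated arrays, while the median of named genes stays near 0.

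Genes listed as markers of other cell types also gave signal and differed between arrays. Whether that signal came from such cells or from the smooth muscle cells themselves was not tested. Of 8 tested genes of fibroblasts and meninges 6 were higher in ligated arteries, against 6.21% of named genes. Among the 6 were COL1A1, by 3.02 ± 0.28, and LUM, by 2.38 ± 0.18 (SE, n = 3), and 4 of the 6 calls held with sham 2 and sham 3 averaged. Their summed signal ran from 355 to 445 in sham and from 1124 to 1382 in ligated arteries. The summed signal of the 29 contractile members, in which the brightest probes weigh most, was 3050, 2125 and 1946 in sham and 1312, 1822 and 812 in ligated arteries. The level of fibroblast genes thus moved with the groups in the opposite direction to the members, and its part in the results was not tested. Red cell transcripts did not follow the groups: their sum was 189, 389 and 372 in sham and 28.5, 31.4 and 668 in ligated arteries, highest on ligated 3. The globin HBB2 read 7.08, 8.10 and 8.05 in sham and 4.32, 4.51 and 8.74 in ligated arteries. Sums of 5 endothelial genes (51.9 to 105 in sham, 55.6 to 141 in ligated) and of 10 leukocyte genes (9.41 to 14.1 and 8.28 to 24.5) were also highest on ligated 3, where most members were lowest. The brightest genes weigh most in such sums: VWF read 6.98 on ligated 3, its highest value, whereas ESAM was lowest there at -0.19. None of the 5 endothelial, 10 leukocyte and 3 red cell genes passed (limma; 0, 2 and 0 at an unadjusted p under 0.05). Of the neuron and glia markers SYT1 alone was tested, at -1.42 ± 0.60 (SE, n = 3), with an adjusted p of 0.185 (limma), and 1 of its 3 probes passed. SYT1 was well above background on 3 sham and 0 ligated arrays, so it was tested only through the sham group and its ligated values are background signal. GFAP, AQP4 and SLC1A2 were not above background on any array. The part of other cell types in the low values of ligated 3 was not tested.

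Of 10 other genes of smooth muscle and pericytes 0 passed on the brightest probe (limma), with a median change of -0.58. Of the 4 GUCY1A1 probes 1 passed. At an unadjusted p under 0.05 (limma) there were 5 genes, against 27.8% of named genes. Of these 5 PDGFRB was higher and the others were lower. Their summed signal was 59.7, 77.4 and 71.8 in sham and 57.9, 44.3 and 23.1 in ligated arteries, lowest on ligated 3 as for the members. Phospholamban (PLN), which restrains the calcium pump of the store, had a change of -1.31 ± 0.36 (SE, n = 3; adjusted p = 0.0748, limma). The receptor PDGFRB, which pericytes and fibroblasts carry too, had one of 2.78 ± 0.68 (adjusted p = 0.0572, limma). Of 11 tested genes of striated muscle 1 passed, while 8.89% of named genes were called in either direction. It was the muscle creatine kinase CKM at -2.52 ± 0.28 (SE, n = 3), whose adjusted p (limma) was 0.0249 with sham 2 and sham 3 averaged.

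**Figure D5:**
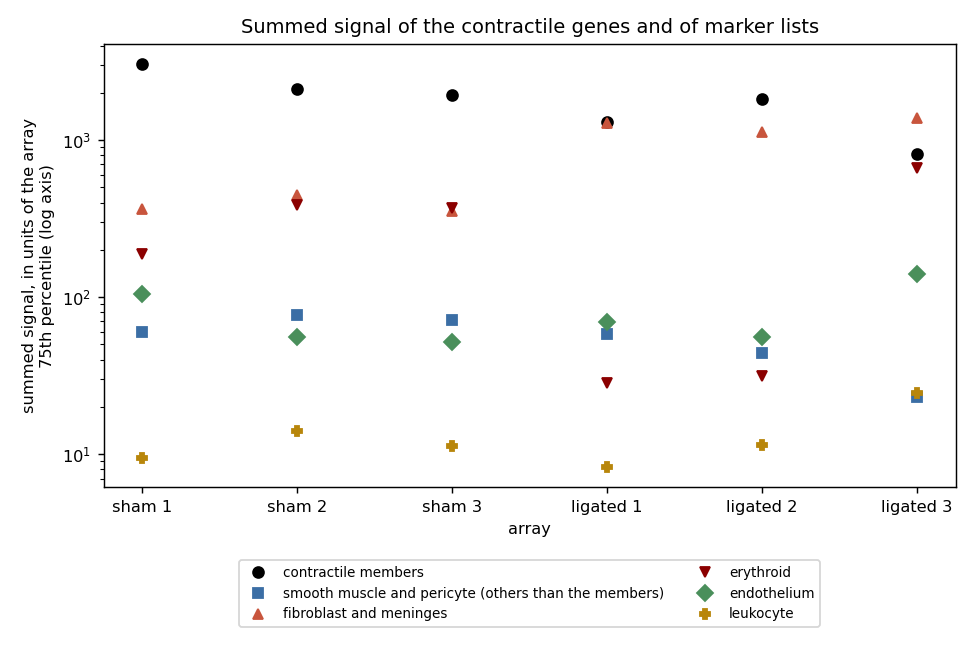
Summed signal (y axis, log scale, in units of each array's 75th percentile) of the 29 contractile members and of 5 marker lists on each array. The fibroblast sum is higher on all ligated arrays, and the red cell sum is 28.5, 31.4 and 668 on ligated arrays 1 to 3.

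Genes that act with the members were taken from 3 lists. In the list of myosin regulators and cofactors of serum response factor, 4 of 24 tested genes were lower and 1 higher, with a median change of -0.15. Of named genes 2.68% were called lower and 6.21% higher. CAMK2G, a calmodulin-dependent kinase, read 5.25, 5.10 and 5.02 in sham and 3.56, 3.33 and 3.69 in ligated arteries. The groups stood far apart, and the change of -1.60 ± 0.19 (SE, n = 3; adjusted p = 0.00701, limma) still passed with sham 2 and sham 3 averaged (0.0385). PRKG1, the cGMP-dependent kinase that acts on MRVI1 and relaxes smooth muscle, had a change of -1.41 ± 0.22, and 1 of its 2 probes passed. The calmodulin gene CALM2 and RGS2, which shortens signals of receptors that raise calcium, had changes of -0.96 ± 0.19 and -0.93 ± 0.19. ELK4, a ternary complex factor that binds serum response factor, was higher by 1.40 ± 0.32. None of these calls but that of CAMK2G held with sham 2 and sham 3 averaged. CNN1 (calponin), a thin filament protein often measured with these genes, had no matched probe.

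In the list of nonmuscle forms 3 of 16 tested genes were higher and 0 lower, against 6.21% and 2.68% of named genes. The median change was 0.33, and 7 genes were at an unadjusted p under 0.05 (limma), against 27.8% of named genes. MYH10, a nonmuscle myosin heavy chain, read -2.09, -2.26 and -2.06 in sham and 0.07, -0.22 and -0.88 in ligated arteries. Every ligated array was higher, by 1.79 ± 0.28 (SE, n = 3), with an adjusted p of 0.0154 (limma), where MYH11 of smooth muscle had its change of -1.16. MYH9, also a nonmuscle heavy chain, had a change of -0.51 ± 0.40 (adjusted p = 0.446, limma), and PFN1 one of -0.71 ± 0.22 (adjusted p = 0.0932, limma). By sign, 11 genes of this list were higher and 5 lower. TAGLN2 and TAGLN3, relatives of transgelin, were higher by 2.05 ± 0.43 and 1.18 ± 0.24, against -1.01 for TAGLN. The difference between muscle and nonmuscle forms was not tested as such, and none of the 3 calls held with sham 2 and sham 3 averaged.

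Among partners of the dense plaque and Z-disc 2 of 37 tested genes were higher and 1 lower, with a median change of -0.31. The integrin ITGA8, a matrix receptor of smooth muscle, was lower, with a change of -1.71 ± 0.24 (SE, n = 3; adjusted p = 0.0111, limma). The actin-binding proteins SYNPO and LIMA1 were higher by 1.95 ± 0.36 and 0.86 ± 0.17. With sham 2 and sham 3 averaged the adjusted p (limma) of these 3 genes ran from 0.0541 to 0.139. Of named genes 8.89% were called in either direction, which is close to 3 of 37.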

How the data were processed

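Agilent Feature Extraction 10.7 read the scans, per the submitters' processing notes. Per the file headers, the processed signal is a background-subtracted and spatially detrended intensity, not scaled between arrays. The raw spot signal and local background, used in an alternative, are also deposited as intensity values, and the spot marks are deposited flags of the kind other. The deposited value table holds log2 values with near-equal quantiles on all arrays (medians of 5.05); how it was made is not stated in the sources used here.

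Outlier spots (2 to 19 an array) were left out, repeated spots averaged as log2, and the 75th percentile of each array subtracted. A probe was tested if well above background on at least 3 of 6 arrays (27410 of 43603). The comparison used limma 3.58.1 (R 4.3.3), checked on simulated data, at an adjusted p of 0.05. The brightest tested probe, by its mean over all arrays, stands for a gene. Gene numbers and accessions of the files were first looked up in a RefSeq gene table of assembly mOryCun1.1, used for names alone. Where that gave no symbol, a symbol in the files was used, and member probes took the member's name. With these rules 22607 probes had 1 symbol, 23 several and 20973 none.

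The members and the lists were chosen with earlier results of these data known. The genes named in full are the members that passed and ACTA2, MYH11, TAGLN, MYOCD, MYLK, SMTN, DES, ACTG2, LMOD1, MYL9, TPM1, TPM2 and CALD1, with up to 4 passing genes of each related list and up to 2 genes of each marker list. ELK4, MYH9, PFN1, TPM4, FHL1, GUCY1A1, the other actins and the remaining members were described after their values were seen. The labels do not say that arrays of the same number are paired, and no block was used.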

Additional observations from a re-analysis of the deposited data

How the results depend on the processing

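The count of members called lower, 4, was 3 with quantile normalization, with the deposited value table, without a filter on dim probes and with a replicate block, and 5 with the mean of all probes of a gene. Of named genes 2.88%, 2.87%, 0.89%, 0.92% and 3.43% were called lower under these 5 settings, in that order. The member count was 8 with normexp after high-background spots were left out and 8 with probes above background on all 6 arrays. There 3.86% and 3.87% of named genes were called lower. It was 6 with median centring, which moved the median of all named genes to -0.19, 7 with trend and robust variances, and 9 with array weights. The share of named genes called lower moved too, from 2.68% to 3.96%, 4.17% and 9.02% under these last 3. The member count was 2 with scan day as a block (which only removes sham 3) and with sham 2 and sham 3 averaged, where 0.33% and 0.37% of named genes were called lower. With normexp on all spots it was 0, as for all 7574 named genes, with 4 members lower at an unadjusted p under 0.05 (limma). Leaving out 1 array gave 2 to 4, with 0.33% to 2.76% of named genes called lower. The count called higher, 0, became 1 (FHL1) with array weights, and 0 to 1 when 1 array was left out. The members' median change ran from -1.13 with median centring to -0.59 with array weights. The sign of ACTG2 turned with median centring (-0.0038) and without ligated 2; leaving out 1 array gave -0.32 to 0.78. SMTN and CSRP1 lost their calls under 1 of 19 alternatives, normexp on all spots; CASQ2 lost its call under 5 and DES under 13. MRVI1 gained a call under 6, MYLK and MYL9 under 5 each, LMOD1 under 3, and HSPB6 and FHL1 under 2 each.

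Of myosin regulators 5 were called. The count was 2 with quantile normalization, without the filter, with the deposited table and with a replicate block. It was 1 with scan day as a block and with the sham arrays averaged, 0 with normexp, and 1 to 3 when 1 array was left out. It rose to 6 with the filter on all 6 arrays, with trend and robust variances and with the mean of all probes of a gene, and to 7 with array weights. Of nonmuscle forms 3 were called; the count was 5 with normexp without high-background spots and with the filter on all 6 arrays, 6 with trend and robust variances, 8 with array weights, 1 without the filter, 0 with normexp, scan day as a block or the sham arrays averaged, and 0 to 3 when 1 array was left out. Of plaque partners 3 were called; the count was 8 with trend and robust variances and with array weights, 0 with normexp, scan day as a block or the sham arrays averaged, and 0 to 3 when 1 array was left out. Calls over all named genes moved too, from 673 of 7574 to 868 with trend and robust variances and 1638 with array weights. They were 877 with the mean of all probes, 609 with quantile normalization, 605 with the deposited table and 377 with a replicate block. They were 185 with the sham arrays averaged, 166 with scan day as a block and 0 with normexp. With the filter on all 6 arrays they were 708 of 6688, and without the filter 425 of 10023. The cause of these differences was not tested. Deviations of same-numbered arrays correlated at 0.43, -0.57 and 0.58. Each deviation is taken from the mean of its own group, and sham 2 and sham 3 were much alike. These values therefore cannot decide whether the numbers pair the arrays. HSPB7 was the only member limited by signal over background.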
